A study of Mus musculus with 4 samples.

Results

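The 2 libraries compared here got no ligand: 1 of cells given the water of a mock free oligosaccharide (fOS) extraction, and 1 of cells given plain ultrapure water. They are 2 of the 4 libraries of the series and were chosen by their treatment labels alone. All 4 were RAW 264.7 cells, a mouse macrophage line, permeabilized with digitonin, a detergent that opens the plasma membrane, and kept for 24 h. The other 2 got 10 µM of the disaccharide Manβ1-4GlcNAc in water (ManGn) or 10 µM of the fOS pool of Trex1-/- cells in water. ManGn was set against plain water and fOS against the mock extraction, so the comparison asks how far the controls differ from each other. The titles letter plain water and ManGn as A, and the mock extraction and fOS as B. What the letters mark is not given in the sources used here, and it cannot be told apart from the extraction.

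Gene levels are FPKM, fragments scaled by transcript length and by library depth. A gene counted as measured where either library had FPKM of 1 or more, which 10974 of 17655 listed genes reached. Depth was estimated at 10116000 reads with the mock extraction and 10030000 reads with plain water, from the steps that whole reads leave in low FPKM values. Of the 10 macrophage markers 9 were at FPKM of at least 1 in both libraries, and their FPKM summed to 9853 with the mock extraction and 9630 with plain water. Mertk, a macrophage receptor for dying cells, was listed at 0 with the mock extraction and was at 0.83 FPKM with plain water. The 4 T cell markers in the table summed to 2.30 FPKM with the mock extraction and 2.76 FPKM with plain water, and the 3 neutrophil markers to 1.37 and 0.38 FPKM. Markers of B (5 in the table), NK (1), erythroid (2), fibroblast (6), epithelial (3) and endothelial cells (3) summed to at most 0.28 FPKM in either library, and Epcam and Klrb1c were at 0 in both. Each condition has 1 library, so no difference below has a replicate check, an error between cultures or a p-value, and "higher" and "lower" describe these libraries. In bulk RNA, less RNA per cell and fewer cells of a kind cannot be told apart.

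ATF4 is a transcription factor made when amino acids run short or the endoplasmic reticulum (ER) is strained, and it turns on amino acid transporters, amino acid synthesis and the factors Ddit3 and Trib3. HIF-1 acts when oxygen is low, and drives glycolysis, the growth factor Vegfa and the oxygen-sensing hydroxylases. Receptors for microbial products, lipid-sensing nuclear receptors and MHC class II report on the activation and differentiation of the cell.

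The motifs through which 3 of these programmes are known to act were looked for in the 250 bases before the start sites of the RefSeq genes (GRCm38.p6), on both strands. The C/EBP-ATF response element, which ATF4 binds, was spelled TGATGNAA, the hypoxia response core ACGTG, and the E-box of the clock factors CACGTG, which contains the hypoxia core. The windows below belong to genes that stood far apart between the 2 libraries. They are shown because they hold these letters and touch no annotated exon. Capitals mark the motif on either strand.
Chac1: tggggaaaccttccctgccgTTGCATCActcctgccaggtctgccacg
Jdp2: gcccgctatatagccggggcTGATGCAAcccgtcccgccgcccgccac
P4ha2: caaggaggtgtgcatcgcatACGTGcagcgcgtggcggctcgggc
Egln3: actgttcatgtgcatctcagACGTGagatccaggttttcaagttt
Ero1l: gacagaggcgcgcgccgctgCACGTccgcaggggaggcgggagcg
Per1: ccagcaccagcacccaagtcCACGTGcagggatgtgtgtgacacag

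The Chac1 window lies at chr2:119351029-119351076 on the plus strand, and its motif ends 186 bases before the start site. The Jdp2 window lies at chr12:85599363-85599410 on the plus strand, with the motif 26 bases before the start. The hypoxia windows lie at chr11:54100826-54100870 for P4ha2 on the plus strand, chr12:54204079-54204123 for Egln3 on the minus strand, and chr14:45318611-45318655 for Ero1l on the minus strand. The Per1 window lies at chr11:69098763-69098808 on the plus strand. A match is a description of letters, and binding was not measured.

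Over all measured genes, 1030 were at least 2-fold higher with the mock extraction than with plain water (9.39%), and 748 were at least 2-fold lower (6.82%). Of the higher genes 177 were at least 4-fold and 70 at least 8-fold apart, and of the lower genes 153 and 76. Named genes made up 885 of the higher and 605 of the lower genes, predicted or clone genes 96 and 100, and small RNA genes 49 and 43. The median log2 ratio of FPKM plus 0.1, mock extraction over plain water, was 0.07, with quartiles of -0.35 and 0.51. Since the summed FPKM of the 2 libraries were 496835 and 540141, scaling them to the same sum without small RNA genes gave 1243 higher and 536 lower genes. The gene list medians below stand beside this overall median of 0.07.

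**Figure D1:**
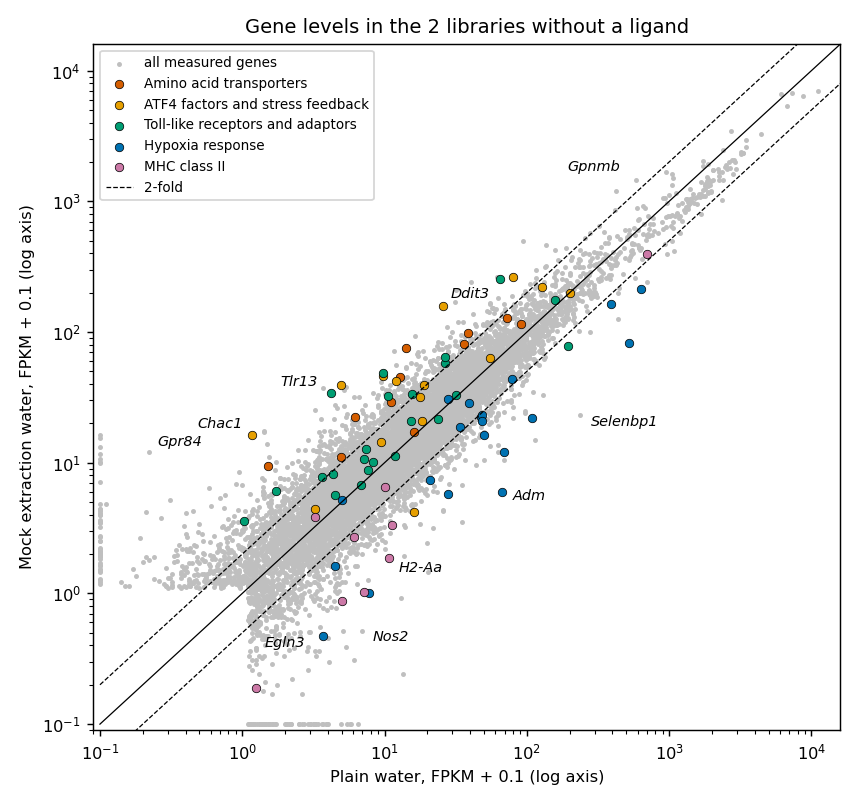
FPKM plus 0.1 of the 10974 measured genes with mock extraction water (y axis) against plain water (x axis), both on log axes, with 5 gene lists in colour and dashed lines at 2-fold. Amino acid transporters and ATF4 genes lie mostly above the diagonal, and 15 of 20 hypoxia genes lie below the lower dashed line.

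Several ATF4-linked stress genes were higher with the mock extraction. Of 15 measured ATF4 factors and feedback genes 7 were at least 2-fold higher and 1 was lower, with a median log2 ratio of 0.83. Chac1, which breaks down glutathione, was at 16.2 FPKM with the mock extraction and 1.07 FPKM with plain water. Trib3, a pseudokinase that restrains ATF4, was at 39.1 and 4.85 FPKM, mock extraction first. Ddit3, which encodes the stress factor CHOP, was at 159 FPKM with the mock extraction and 25.8 FPKM with plain water. All 3 were at least 6-fold apart, Ddit3 at a ratio of 6.19. Jdp2, a repressor of the AP-1 family, was at 45.8 FPKM with the mock extraction, against 9.69 FPKM with plain water. Atf4 itself was at 261 and 79.2 FPKM, and its relative Atf5 at 42.5 and 12.02 FPKM, in the same order of libraries. Ppp1r15a, which brings in the phosphatase that ends the stress arrest of translation, was at 39.3 FPKM with the mock extraction and 18.97 FPKM with plain water.

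The exception in the list was Ddit4, an inhibitor of the growth kinase mTORC1, at 4.08 FPKM with the mock extraction and 16.1 FPKM with plain water. Ddit4 is known to answer to low oxygen as well. Atf3, a stress factor, and Eif4ebp1, a brake on translation, differed little, at 62.7 against 55.5 FPKM and 199 against 201 FPKM, mock extraction first.

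The transporters that bring in amino acids were the list with the highest share of higher members, 8 of 11, with a median log2 ratio of 1.34 and none at least 2-fold lower. Slc7a5, the light chain of the leucine transporter, was at 75.9 FPKM with the mock extraction and 14 FPKM with plain water. Slc1a4, a carrier of serine and alanine, was at 9.36 FPKM with the mock extraction and 1.41 FPKM with plain water. The cationic amino acid transporter Slc7a1 was at 45.5 and 12.7 FPKM, and the lysosomal carrier Slc38a7 at 22.1 and 6.11 FPKM, mock extraction first. The glutamine carriers Slc38a2 and Slc1a5 were at 98.2 and 81.1 FPKM with the mock extraction, against 38.6 and 36.1 FPKM with plain water. Slc7a11, the cystine importer that both ATF4 and NRF2 are known to drive, was at 115 FPKM with the mock extraction and 91.2 FPKM with plain water, a log2 ratio of 0.34.

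The enzymes downstream were closer together. Of 17 genes of amino acid and one-carbon synthesis 2 were higher, Cth and Psph, and 1 was lower, Pycr1, with a median log2 ratio of 0.34. Beside 9.39% and 6.82% of all measured genes, these counts are no result about the list. With the ratios centred on their median 1 was higher and 2 were lower. Cth, which makes cysteine, was at 9.71 FPKM with the mock extraction and 3.35 FPKM with plain water. Psph, the last enzyme of serine synthesis, was at 39.7 and 19.1 FPKM, and Pycr1, of proline synthesis, at 1.87 and 4.07 FPKM, mock extraction first. Of 20 cytosolic aminoacyl-tRNA synthetases 3 were at least 2-fold higher (6 with the sums matched without small RNA genes) and 16 had a log2 ratio above 0, with a median of 0.67. Rars, the arginine enzyme, was at 182 FPKM with the mock extraction and 62.4 FPKM with plain water. Qars, the glutamine enzyme, stood at the other end, at 69.7 FPKM with the mock extraction and 113 FPKM with plain water.

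ER chaperones stood apart from these genes. Of 24 genes on the list of ER chaperones and the unfolded protein response 0 were higher and 2 were lower. Their median log2 ratio was -0.21. This list leaves out Atf4, Ddit3, Trib3, Chac1 and Ppp1r15a, which are given above and were higher. Hspa5, the main ER chaperone, was at 258 FPKM with the mock extraction and 574 FPKM with plain water, and P4hb, a disulfide isomerase, at 794 and 1673 FPKM. Herpud1, which takes part in ER-associated degradation, had the highest ratio of the list, at 49.5 FPKM with the mock extraction and 26.0 FPKM with plain water, just under 2-fold.

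TGATGNAA occurred upstream of 4 of 14 ATF4 factors and feedback genes with a RefSeq window (Atf3, Chac1, Jdp2 and Nupr1), 28.6%. It occurred for 4 of 15 genes of amino acid synthesis, 3 of 13 tRNA synthetases and 1 of 8 amino acid transporters. Of all 32851 promoter windows 3.45% held it, and of 8761 measured genes with a window 2.48%. Of these 12 genes Chac1, Jdp2 and Tars were at least 2-fold higher and Pycr1 was lower. The other 8 (Atf3, Nupr1, Asns, Got1, Pck2, Slc7a11, Aars and Gars) were less than 2-fold apart.

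**Figure D2:**
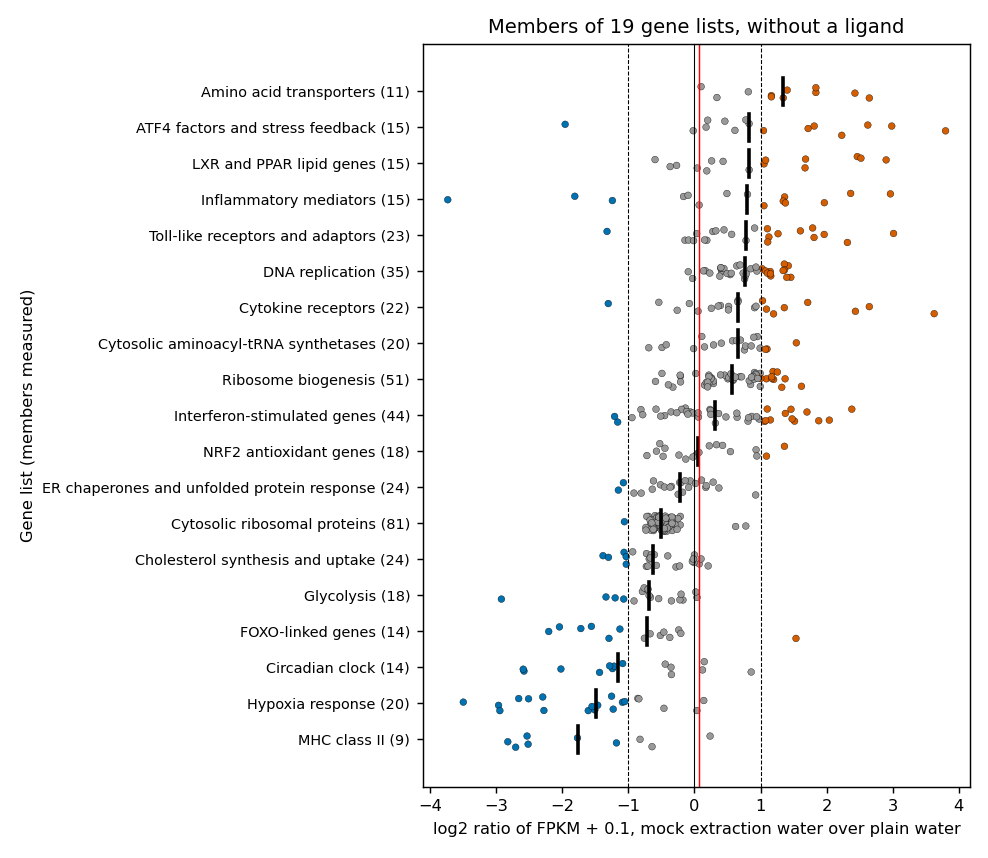
Log2 ratio of FPKM plus 0.1, mock extraction water over plain water, for each measured member of 19 gene lists, with the number of members in brackets. Points at least 2-fold higher are orange and at least 2-fold lower blue, black bars are list medians, and the red line is the median of all measured genes. The medians run between 1.34 for amino acid transporters and -1.77 for MHC class II.

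Most hypoxia genes were lower with the mock extraction. Of 20 members 15 were at least 2-fold lower and 0 were higher, with a median log2 ratio of -1.49. Adm, the vasodilator peptide adrenomedullin, was at 5.83 FPKM with the mock extraction and 66.9 FPKM with plain water, 11.5-fold lower. Egln3, a hydroxylase that marks HIF for destruction, was at 0.37 and 3.57 FPKM, and Egln1, its relative, at 16.3 and 49.8 FPKM, mock extraction first. P4ha2, a subunit of the collagen prolyl hydroxylase, was at 0.91 FPKM with the mock extraction and 7.68 FPKM with plain water. Ero1l, the ER oxidase, was at 83.0 FPKM with the mock extraction and 525 FPKM with plain water, while its relative Ero1lb on the unfolded protein response list was at 11.6 and 17.8 FPKM. Ankrd37 was at 22.1 FPKM and Ndrg1 at 215 FPKM with the mock extraction, against 109 and 631 FPKM with plain water. Vegfa, the vascular growth factor, was at 20.6 FPKM with the mock extraction and 48.5 FPKM with plain water. Hif1a, whose product is set mainly by protein stability, was at 30.7 and 27.9 FPKM, mock extraction first, and Pfkfb4 at 5.05 and 4.92 FPKM.

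The glycolytic enzymes, many of which HIF-1 is known to drive, had a smaller share of lower members. Of 18 genes 4 were at least 2-fold lower and 16 had a log2 ratio below 0, with a median of -0.69. Eno2, the neuronal form of enolase, was at 14.9 FPKM with the mock extraction and 113 FPKM with plain water, whereas Eno1, the common form, was at 1153 and 1123 FPKM. Pfkp and Pfkm, 2 forms of phosphofructokinase, were at 101 and 9.22 FPKM with the mock extraction, against 232 and 23.5 FPKM with plain water. The third form, Pfkl, was at 57.5 FPKM with the mock extraction and 56.7 FPKM with plain water. Gpi1, the isomerase that follows hexokinase, was at 569 FPKM with the mock extraction and 1196 FPKM with plain water. Gapdh, often used as a reference gene, was at 6962 and 11042 FPKM, and Ldha at 1239 and 1398 FPKM, mock extraction first.

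ACGTG occurred upstream of 13 of 19 hypoxia genes with a window (68.4%) and of 9 of 18 glycolytic genes (50.0%), against 16.6% of all promoter windows and 25.9% of measured genes. The same letters occurred for 8 of 13 circadian genes (61.5%), so they were not particular to the hypoxia list. Adm and Ndrg1 did not hold them in their windows.

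Cholesterol genes had fewer members 2-fold apart. Of 24 genes of cholesterol synthesis and uptake 5 were 2-fold or more lower and 0 higher, and 20 had a log2 ratio below 0, with a median of -0.63. With the sums matched without small RNA genes 2 were lower. Hmgcs1, an early enzyme of the pathway, was at 21.5 FPKM with the mock extraction and 45.1 FPKM with plain water, and Stard4, a cholesterol carrier, at 8.93 and 23.5 FPKM. Of 14 fatty acid synthesis genes only Scd2, a desaturase, was 2-fold lower, at 200 FPKM with the mock extraction and 439 FPKM with plain water. The sterol response letters TCACNCCAC occurred upstream of 1 of 17 cholesterol genes, Hmgcs1, against 1.05% of all windows.

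Among genes of lipid-sensing nuclear receptors those 2-fold apart were all higher. Of 15 genes 7 were 2-fold or more higher and 0 lower, with a median log2 ratio of 0.83. Nr1h3, which encodes the oxysterol receptor LXRα, was at 5.58 FPKM with the mock extraction and 0.66 FPKM with plain water. Pparg, the fatty acid receptor, was at 2.08 FPKM with the mock extraction and 0.28 FPKM with plain water, and Fabp4, a fatty acid carrier that it drives, at 7.52 and 1.28 FPKM. The sterol exporters Abcg1 and Abca1 were at 44.4 and 13.8 FPKM with the mock extraction, against 13.8 and 6.61 FPKM with plain water. Plin2, which coats lipid droplets, was at 91.7 FPKM with the mock extraction and 28.7 FPKM with plain water. Lpl, the lipoprotein lipase, and Apoe were on the other side of 0, at 542 against 700 FPKM and 2.62 against 3.18 FPKM, mock extraction first.

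Several sensors of microbial products were among the higher genes. Of 23 Toll-like receptors and adaptors 10 were 2-fold or more higher and 1 lower, with a median log2 ratio of 0.78. Tlr13, the mouse receptor for bacterial ribosomal RNA, was at 34.1 FPKM with the mock extraction and 4.13 FPKM with plain water. Tlr7 and Tlr8, receptors for single-stranded RNA, were at 48.5 and 5.97 FPKM with the mock extraction, against 9.67 and 1.63 FPKM with plain water. Cd14, which hands lipopolysaccharide to Tlr4, was at 254 FPKM with the mock extraction and 64.9 FPKM with plain water, and Tlr4 at 32.0 and 10.5 FPKM. The adaptor Myd88 was at 33.6 FPKM with the mock extraction and 15.6 FPKM with plain water, while Ticam1, the adaptor of the interferon arm, was at 11.1 and 11.8 FPKM. The single lower member was Ly86, the partner of the receptor Cd180, at 77.7 FPKM with the mock extraction and 195 FPKM with plain water. Cd180 itself was at 58.3 and 26.6 FPKM in the same order.

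Other surface receptors led the higher genes. Gpr84, a receptor for medium-chain fatty acids, had the highest log2 ratio of the named genes with FPKM of at least 5, at 12.1 FPKM with the mock extraction and 0.12 FPKM with plain water. The water value stands for an estimated 2.05 reads, so the ratio of 103 in estimated reads has a 95% counting interval of 28.2 to 857. Ptafr, the receptor for platelet-activating factor, was at 17.1 FPKM with the mock extraction and 1.32 FPKM with plain water, and Ptger1, a prostaglandin E receptor, at 13.9 and 1.39 FPKM. Il7r, the interleukin-7 receptor chain, was at 17.5 FPKM with the mock extraction and 1.32 FPKM with plain water. Of 22 cytokine receptor genes 8 were higher and 1 lower, with a median log2 ratio of 0.66. Il10ra was the lower one, at 16.8 FPKM with the mock extraction and 41.6 FPKM with plain water, while its partner chain Il10rb was at 73.2 and 22.2 FPKM. Msr1, a scavenger receptor, was at 168 FPKM with the mock extraction and 31.2 FPKM with plain water. Of 10 C-type lectins 4 were higher, led by Clec5a at 71.5 FPKM with the mock extraction and 11.6 FPKM with plain water, and by Clec4e, a sensor of mycobacterial glycolipid, at 53.6 and 13.98 FPKM. Csf1r, the receptor that keeps macrophages alive, was at 526 FPKM with the mock extraction and 256 FPKM with plain water.

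Inflammatory mediators were divided. Of 15 genes 7 were 2-fold or more higher and 3 lower, with a median log2 ratio of 0.80. Nos2, which makes nitric oxide, was at 0.42 FPKM with the mock extraction and 6.82 FPKM with plain water. Ptgs2, the inducible cyclooxygenase, was at 0.45 and 1.83 FPKM, and Il15 at 3.51 and 8.44 FPKM, mock extraction first. Irg1, which makes itaconate, was at 4.59 FPKM with the mock extraction and 0.50 FPKM with plain water, and Il1rn, the interleukin-1 antagonist, at 31.5 and 6.03 FPKM. Nlrp3, of the inflammasome, was at 15.7 FPKM with the mock extraction and 6.13 FPKM with plain water, and Tnf at 13.9 and 9.88 FPKM. Among NF-κB genes 4 of 16 were higher and 2 lower, and the inhibitors Nfkbie and Tnfaip3 stood on opposite sides. Nfkbie was at 10.7 FPKM with the mock extraction and 3.36 FPKM with plain water, and Tnfaip3 at 5.30 and 13.7 FPKM. Of 8 measured chemokines 3 were higher, with Ccl9 at 150 FPKM with the mock extraction and 60.8 FPKM with plain water and Ccl2 at 4.44 and 1.91 FPKM. The κB letters, GGGA and TTCC with 2 bases of any kind between, occurred upstream of 3 of 13 NF-κB genes (Cyld, Nfkb2 and Nfkbia), none of which was 2-fold apart, and of 0 of 10 inflammatory mediators, against 1.21% of all windows.

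Interferon-stimulated genes were higher in part, and most were less than 2-fold apart. Of 44 measured genes 12 were at least 2-fold higher, 2 were lower and 30 lay between, with a median log2 ratio of 0.31. The share of higher genes lay above the 9.39% of all measured genes. Adding 1 in place of 0.1 gave 7 higher genes and 1 lower gene. With FPKM of at least 5 required, 8 of 35 were higher. Samd9l, an antiviral restriction factor, was at 14.9 FPKM with the mock extraction and 2.78 FPKM with plain water, and Slfn2 at 70.6 and 17.1 FPKM. Ifit2 was at 4.21 FPKM with the mock extraction and 1.07 FPKM with plain water. Irf7, a factor that carries the interferon signal, was close in both, at 5.73 FPKM with the mock extraction and 6 FPKM with plain water. Isg15 was at 8.06 FPKM with the mock extraction and 6.79 FPKM with plain water. Dhx58 and Isg20 were the lower members, at 7.18 and 0.67 FPKM with the mock extraction, against 16.2 and 1.68 FPKM with plain water. Of 16 genes of STING and nucleic acid sensing 2 were higher, Ikbke and Tmem173, beside 9.39% of all measured genes. The list median of 0.08 was close to the 0.07 of all measured genes. Tmem173, the gene of STING, was at 11.4 FPKM with the mock extraction and 4.79 FPKM with plain water.

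MHC class II genes had the lowest list median, -1.77 on the log2 scale, with 6 of 9 members at least 2-fold lower and 0 higher. H2-Aa and H2-Ab1, the chains of the I-A molecule that shows peptides to T cells, were at 1.77 and 3.21 FPKM with the mock extraction, against 10.7 and 11.2 FPKM with plain water. Cd74, the invariant chain, was at 394 FPKM with the mock extraction and 698 FPKM with plain water. H2-Oa rests on an estimated 0.972 and 12.2 reads. H2-DMb1 and H2-DMb2 are near-identical, so reads can be split between them, and their summed FPKM was 6.33 with the mock extraction and 9.17 with plain water. Adding 1 in place of 0.1 to these low values gave a median of -0.97 and 4 lower members. Of 18 MHC class I genes only Tap1, a peptide transporter, was 2-fold lower, at 12.98 FPKM with the mock extraction and 27.4 FPKM with plain water.

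Many circadian genes were lower, and some FOXO-linked genes. Of 14 circadian genes 8 were 2-fold or more lower and 0 higher, with a median log2 ratio of -1.15. Nr1d1, the repressor REV-ERBα, was at 4.18 FPKM with the mock extraction and 25.7 FPKM with plain water, Dbp at 4.22 and 25.7 FPKM, and Per1 at 13.4 and 54.7 FPKM. Arntl, which Nr1d1 is known to repress, stood on the other side at 17.5 FPKM with the mock extraction and 9.62 FPKM with plain water. Clock was at 8.48 and 7.64 FPKM, mock extraction first. CACGTG occurred upstream of 5 of 13 circadian genes with a window (38.5%), against 6.02% of all windows and 10.2% of measured genes. The 5 were Bhlhe41, Cry1, Gm129, Per1 and Tef, so Nr1d1 and Dbp did not hold it in their windows. Of 14 FOXO-linked genes 6 were lower and 1 higher, with a median log2 ratio of -0.71. Cdkn1b, a brake on the cell cycle, was at 16.97 FPKM with the mock extraction and 50.2 FPKM with plain water, and Ccng2 at 18.9 and 62.3 FPKM. Cdkn1a, a brake on the cycle and a p53 target, was at 125 FPKM with the mock extraction and 436 FPKM with plain water. Txnip, which slows glucose uptake, was at 419 FPKM with the mock extraction and 1085 FPKM with plain water.

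Replication and ribosome biogenesis genes were higher in part. Of 35 DNA replication genes 12 were at least 2-fold higher and 33 had a log2 ratio above 0, with a median of 0.76. Ccne1 and Ccne2, the cyclins of entry into S phase, were at 15.7 and 14.1 FPKM with the mock extraction, against 5.81 and 5.08 FPKM with plain water, and the helicase subunit Mcm2 was at 50.4 and 19.5 FPKM. Of 35 mitosis genes 0 were 2-fold apart, and their median was 0.11. Of 51 ribosome biogenesis genes 10 were higher and 44 had a log2 ratio above 0, with a median of 0.58. With the sums matched without small RNA genes, 18 were higher. The box C/D proteins Nop56 and Nop58 were at 140 and 85.8 FPKM with the mock extraction, against 58.5 and 34.3 FPKM with plain water. The ribosomal proteins themselves lay on the other side: 79 of 81 had a log2 ratio below 0, with a median of -0.50, and only Rps14 was 2-fold lower, at 501 FPKM with the mock extraction and 1046 FPKM with plain water.

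**Figure D3:**
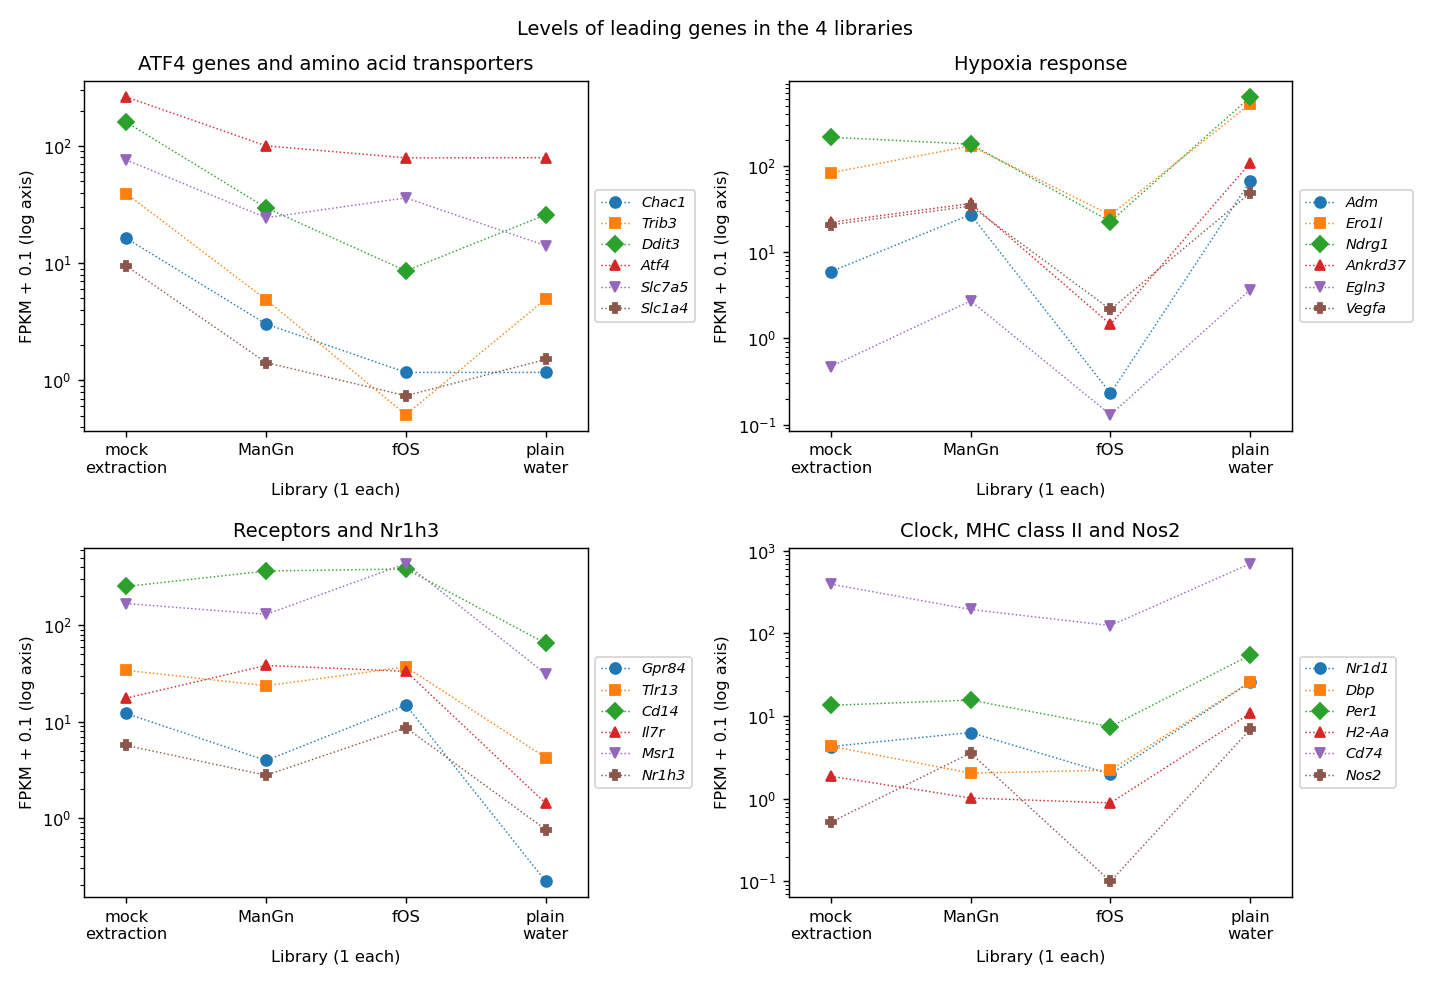
FPKM plus 0.1 (log axis) of leading genes in the 4 libraries, 1 library per condition, with dotted lines joining the values of a gene. Ddit3, Trib3 and Chac1 peak with the mock extraction, the hypoxia and clock genes are highest with plain water, and the receptors are lowest with plain water.

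The levels in all 4 libraries place each control beside the ligands. Between the mock extraction and the ligands, 7.15% of measured genes were at least 2-fold apart in either direction for ManGn and 9.40% for fOS. ManGn and fOS were 2-fold apart at 9.10% of genes. Against plain water the shares were 16.2% for the mock extraction, 17.1% for ManGn and 29.0% for fOS. These comparisons share libraries, so the shares are not independent of each other.

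For the hypoxia list the geometric mean of FPKM plus 0.1 was 14.1 with the mock extraction, 25.6 with ManGn, 4.47 with fOS and 42.6 with plain water. Plain water was thus the highest library, and the mock extraction lay between ManGn and fOS. Adm was at 5.83 FPKM with the mock extraction, 27.1 FPKM with ManGn, 0.13 FPKM with fOS and 66.9 FPKM with plain water. For the ATF4 list the means were 39.8 with the mock extraction, 16.7 with ManGn, 6.30 with fOS and 17.9 with plain water. Here the mock extraction was the highest library and fOS the lowest, with ManGn and plain water between them. Ddit3 was at 159 FPKM with the mock extraction, 29.6 FPKM with ManGn, 8.49 FPKM with fOS and 25.8 FPKM with plain water. The amino acid transporters had means of 40.5 with the mock extraction, 21.4 with ManGn, 21.3 with fOS and 15.6 with plain water.

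For the Toll-like receptors and adaptors the means were 20.9 with the mock extraction, 17.4 with ManGn, 18.6 with fOS and 11.7 with plain water. The replication genes had means of 34.1, 28.6, 44.4 and 20.2, and ribosome biogenesis 34.1, 36.1, 51.3 and 23.1, both in that order of libraries. In these 3 lists plain water was the lowest library. MHC class II had means of 3.12 with the mock extraction, 1.22 with ManGn, 1.02 with fOS and 9.72 with plain water. The clock list had means of 7.67, 8.02, 4.13 and 14.95 in that order. The ER chaperones had means of 63.9 with the mock extraction, 94.9 with ManGn, 67.5 with fOS and 76.0 with plain water, so the mock extraction was the lowest. NRF2 antioxidant genes, whose median log2 ratio was 0.05, had means of 67.1 with the mock extraction, 115 with ManGn, 124 with fOS and 60.1 with plain water. The means of the controls were thus closer to each other than to those of the ligands, though single genes such as Nfe2l2 and Sqstm1 were over 2-fold apart between the controls. Their median log2 ratio between the controls fell below 0 when the ratios were centred on their median or the upper quartiles were matched.

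Among abundant genes, Gpnmb, a membrane glycoprotein of lysosome-rich macrophages, was at 1446 FPKM with the mock extraction and 586 FPKM with plain water. Actb, the common actin, was at 1205 FPKM with the mock extraction and 423 FPKM with plain water, and Pfn1, which loads actin with nucleotide, at 854 and 417 FPKM. Of 26 actin and adhesion genes 4 were higher and 1 lower, and 2 were higher with the ratios centred on their median. Fxyd2, a regulator of the sodium pump, was the most abundant lower gene, at 1028 FPKM with the mock extraction and 2356 FPKM with plain water. Among the lowest ratios, Selenbp1 was at 23.2 FPKM with the mock extraction and 238 FPKM with plain water. Its near-identical copy Selenbp2 was at 3.43 and 35.2 FPKM, and the 2 summed to 26.6 FPKM with the mock extraction and 273 FPKM with plain water. Sema4g, a semaphorin, was at 0.82 FPKM with the mock extraction and 13.1 FPKM with plain water. Id3, an inhibitor of helix-loop-helix factors, was at 4.1 FPKM with the mock extraction and 0.11 FPKM with plain water, which stands for an estimated 1.39 reads. Dhrs9, a retinol dehydrogenase, was at 37.2 FPKM with the mock extraction and 3.62 FPKM with plain water. The other genes among the 15 highest ratios were Adh7, Lipn, Tm4sf19, Slfn10-ps, Pira1 and Pira11, and Adh7, an alcohol dehydrogenase, was at 6.78 FPKM with the mock extraction and 0.81 FPKM with plain water. Among the 15 lowest were also Sbsn, at 0.21 FPKM with the mock extraction and 6.05 FPKM with plain water, and Prr18, Fam71f2, Pbld1, Actr3b, Pdxp and Kbtbd11.

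Several programmes had few or no members 2-fold apart, though some of their medians stood away from the 0.07 of all genes. Of 33 lysosomal genes, 7 pentose phosphate genes and 8 ERK feedback genes 0 were 2-fold apart. Their median log2 ratios were -0.06, 0.40 and 0.52 in that order. Of 81 nuclear genes of the respiratory chain 3 were lower and 0 higher, with a median of -0.18. Of 49 proteasome genes 2 were higher and 0 lower, with a median of 0.30. Of 37 genes of N-glycan and free oligosaccharide handling, the pathway the ligands come from, 3 were higher and 1 lower. Beside 9.39% and 6.82% of all measured genes, that count is no result about the list, whose median log2 ratio was -0.09. Mgat2, a Golgi N-acetylglucosaminyltransferase, was at 41.1 FPKM with the mock extraction and 12.5 FPKM with plain water. Small RNA genes scattered widely, with 26 of 67 snoRNA genes higher and 18 lower, and 23 of 56 microRNA genes higher and 21 lower. Reads of transcripts this short are few, and 23 histone genes, 5 of them higher and 9 lower, have near-identical copies among which reads can be split.

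The remaining lists are given by their counts and the genes at their ends. Over all measured genes 9.39% were higher and 6.82% lower, and a count near these shares is no result about a list. Of 16 immediate-early factors 4 were higher and 3 lower. Egr1 was at 12.5 FPKM with the mock extraction and 2.38 FPKM with plain water, and Fos at 13.7 and 3.68 FPKM. Ier3 stood on the other side, at 24.6 FPKM with the mock extraction and 96.6 FPKM with plain water. Of 13 BCL2 family genes 4 were higher and 2 lower. The anti-death gene Bcl2l1 was at 20.2 FPKM with the mock extraction and 7.83 FPKM with plain water, and the pro-death gene Pmaip1 at 21.5 and 45.2 FPKM. Of 14 p53 targets 3 were lower (5 with the ratios centred) and 0 higher, with Zmat3 at 6.76 FPKM with the mock extraction and 28.4 FPKM with plain water. Of 13 genes of the MYC network and Txnip family 5 were lower and 0 higher, Mxd1, a MYC antagonist, among them at 2.81 and 10.7 FPKM. Of 19 autophagy genes 4 were lower and 0 higher, and Ulk1, the kinase that starts the process, was at 6.82 FPKM with the mock extraction and 14.1 FPKM with plain water.

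Of 15 macrophage identity genes 4 were higher and 0 lower, and Sfpi1, which encodes the lineage factor PU.1, was at 207 FPKM with the mock extraction and 96.7 FPKM with plain water. Of 9 Fc receptor and C1q genes 3 were higher and 1 lower, with the inhibitory receptor Fcgr2b at 67.4 and 16.9 FPKM, mock extraction first. Of 9 costimulatory and checkpoint genes 3 were higher and 2 lower. Sirpa, which receives the signal of Cd47, was at 315 FPKM with the mock extraction and 135 FPKM with plain water, and Cd40 at 2.29 and 7.26 FPKM. Of 9 osteoclast genes 2 were higher, among them the fusion protein Dcstamp at 5.93 FPKM with the mock extraction and 1.3 FPKM with plain water. The vacuolar proton pump had 2 of 20 genes higher, the scavenger receptors 2 of 8, and the GBP and IRG GTPases 2 of 7, each with 0 lower. Their median log2 ratios were 0.10, 0.18 and 0.20 in that order, and the higher GTPases include Gvin1, listed at 0 with plain water. Of 9 arginine and eicosanoid genes Hpgds was higher, at 55.3 FPKM with the mock extraction and 17.8 FPKM with plain water, and Ptgs1 lower, at 0.9 and 4.53 FPKM. Of 12 matrix proteases 3 were higher and 2 lower, and of 8 serpins 4 were higher and 1 lower. Among 10 TGF-β and BMP genes 1 was higher and 1 lower, as among 18 heat shock genes and 3 AHR targets. Tfrc, the transferrin receptor, was the 1 higher of 10 metal genes, at 19.6 FPKM with the mock extraction and 6 FPKM with plain water. Slc5a3, a carrier of the osmolyte inositol, was the 1 lower of 8 osmotic genes, at 3.55 and 8.63 FPKM. Of 12 snoRNA host and nucleolar RNAs Snhg6 was lower, at 39.0 FPKM with the mock extraction and 92.3 FPKM with plain water. Among the 18 NRF2 genes 2 were higher (4 with the sums matched without small RNA genes) and 0 lower. Sqstm1, an autophagy receptor, was at 298 and 116 FPKM, and the factor gene Nfe2l2 at 122 and 57.5 FPKM, mock extraction first. The antioxidant letters TGACNNNGC occurred upstream of 5 of 14 NRF2 genes with a window (35.7%), against 10.2% of all windows and 13.9% of measured genes. Of these 5 (Gclm, Mafg, Nfe2l2, Prdx1 and Txnrd1) only Nfe2l2 was 2-fold apart.

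**Figure D4:**
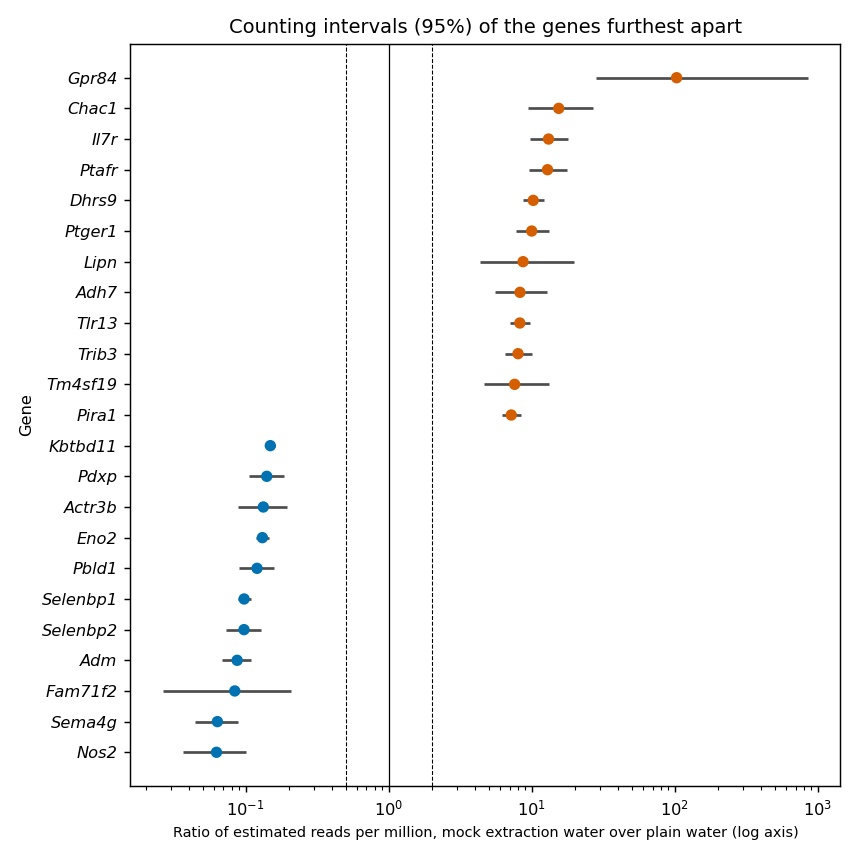
Ratio of estimated reads scaled to library depth, mock extraction water over plain water (log axis), with exact 95% counting intervals, for the 23 genes of the 15 highest and 15 lowest log2 ratios that have a read estimate. The 12 higher genes have lower bounds of at least 4.36 and the 11 lower genes have upper bounds of at most 0.207, and dashed lines mark 2-fold.

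Counting error was small beside the ratio for most genes that were 2-fold apart and had a read estimate. Chac1 stood for an estimated 265 reads with the mock extraction and 17.4 with plain water, which gave a ratio of 15.5 and an exact 95% interval between 9.47 and 26.9. Ddit3 stood for 1402 and 225 reads, a ratio of 6.18 (interval 5.36 to 7.14). Adm stood for 80.8 and 920 reads, a ratio of 0.0873 (interval 0.0687 to 0.110). For C1qc, at 2.27 and 13.5 reads, the interval of 0.0156 to 0.617 was wide. Of 802 higher genes with a read estimate 740 had an interval that left out a ratio of 1, and of 571 lower genes 511 did. These genes were picked for ratios of at least 2-fold, which favours intervals that leave out 1. The counts are thus no separate check of the differences. The intervals cover counting error only, and the spread between cultures was not measured.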

How the data were processed

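RNA-seq of 4 libraries of digitonin-treated RAW 264.7 cells was used, 1 per treatment label. The authors made FPKM values per gene with RSEM and deposited them for 17655 genes. Their aligner, version and build were not given in the sources used here. Deposited sheets of the authors' ratios and gene selections were not used.

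Ratios were log2 of FPKM plus 0.1, mock extraction over plain water, for genes at FPKM of 1 or more in either library, and a gene counted as higher or lower at 2-fold. Over genes with FPKM of at least 5, the 15 highest and 15 lowest ratios and the 5 most abundant genes each way were named, and the 4 members of each list furthest from 0. Predicted and small RNA genes were only counted, and some genes are not reported here. Other genes were named after their values were seen. Members and the 58 lists were chosen with earlier results of these data known. Near-identical copies are uncertain.

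Reads were estimated from 372 to 433 low values per library with transcript lengths of GENCODE M21, of which 66.2% to 67.7% lay within 0.1 of a whole read, so read numbers are approximate. Other assumptions on effective length gave 9820000 to 11616000 reads. Intervals are exact (Clopper-Pearson, 95%). The scripts were tested on simulated data. Promoter windows are from RefSeq (GRCm38.p6), matched by gene ID. Python 3.11, pandas and scipy were used.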

Additional observations from a re-analysis of the deposited data

How the results depend on the processing

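With 1 library per condition no replicate could be left out, and no spread between cultures is known. No paired analysis was possible because each condition has 1 library and the results come from no test. The count of higher genes, 1030, lay between 684, with FPKM of at least 5 required, and 1438, with no filter on low values, over the alternatives. The count of lower genes, 748, was 471 with a pseudocount of 1, 1264 with no filter on low values and 416 with FPKM of at least 5 required. The overall median log2 ratio of 0.07 was 0 with no filter and when centred on itself, -0.024 with the upper quartiles matched, 0.048 with the sums matched without the 100 most abundant genes, and 0.20 without small RNA genes and the sums matched. The last is a shift of 0.12, which follows from the unequal FPKM sums, since small RNA genes held 0.128% of the sum with the mock extraction and 0.121% with plain water. Requiring a counting interval that left out a ratio of 1 gave 945 higher and 672 lower genes. Of the 245 genes named by the rule, only Ahr, which was not 2-fold apart, took the other sign under any alternative. That holds for the sign alone. The sizes of some of these ratios moved under several alternatives, among them a pseudocount of 1 and the other scalings. Of 58 list medians 13 took the other sign under at least 1 alternative. They are NRF2 genes, metal response, histones, immediate-early factors, GBP and IRG GTPases, microRNA genes, arginine and eicosanoid enzymes, the proton pump, STING genes, fatty acid synthesis, AHR targets, lysosomal genes and N-glycan genes. Genes under about 1 FPKM rest on few reads, and their ratios depend on the pseudocount.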

Other observations

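The gene families below were chosen after their values were seen, and Lilrb4, Slfn2 and Slfn8 among them also belong to lists above. All 7 measured genes of a group of immunoglobulin-like receptors (Pira, Lilr and Gp49 genes) were at least 2-fold higher with the mock extraction. Their median log2 ratio was 2.78. Lilrb4, an inhibitory receptor, was at 499 FPKM with the mock extraction and 94.4 FPKM with plain water, and its near-identical copy Gp49a at 241 and 40.2 FPKM. The 2 summed to 741 FPKM with the mock extraction and 135 FPKM with plain water. The activating receptor Pira1 was at 37.97 FPKM with the mock extraction and 5.26 FPKM with plain water. The Pira genes are also close copies of each other. Of 7 Schlafen genes, which restrain growth and viruses, 4 were higher, with Slfn9 at 9.24 FPKM with the mock extraction and 1.97 FPKM with plain water, and Slfn4 at 32.2 and 25.9 FPKM.

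Of 10 splicing factors of the Srsf family 5 were 2-fold or more higher and 0 lower, with a median log2 ratio of 0.95. Srsf2 was at 108 FPKM with the mock extraction and 27.6 FPKM with plain water, and Srsf3 at 77.5 and 23.4 FPKM, whereas Srsf4 was at 27.9 and 29.5 FPKM. Of 20 hnRNP genes 4 were higher, and their median was 0.28. Of 22 RAN cycle and importin genes 3 were higher and 1 lower, beside 9.39% and 6.82% of all measured genes. Their median of 0.11 was close to the 0.07 of all measured genes, so the count is no result about the group. Ranbp1, of the nuclear transport cycle, was at 465 FPKM with the mock extraction and 137 FPKM with plain water.

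Glycogen genes were lower in part, with 4 of 14 at least 2-fold lower and 0 higher. Gbe1, the branching enzyme, was at 13.5 FPKM with the mock extraction and 62.1 FPKM with plain water, and Gys1, the synthase, at 34.9 and 111 FPKM. In the ligand libraries Gbe1 was at 22.9 FPKM with ManGn and 10.6 FPKM with fOS.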
